A study of Mus musculus with 2 samples.

Results

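The replication-dependent histone genes were read in live CD45+ cells of infarcted neonatal mouse hearts. They were taken by symbol, as every gene whose symbol starts with Hist1h, Hist2h, Hist3h or Hist4, which gave 67 of the 32285 genes counted. By the type in the symbol they were 6 H1, 18 H2A, 18 H2B, 12 H3 and 13 H4 genes. Single-cell RNA sequencing with 10x Genomics 5′ chemistry had been run on 1 WT library and 1 *Lyve1* KO library. Both groups of mice had myocardial infarction on postnatal day 2, and their hearts were collected 7 days later at an age of 9 days. Each library pooled the cells of 5 hearts of both sexes, sorted for the leukocyte antigen CD45 and against 7-AAD, a stain that enters dead cells. The KO line lacks *Lyve1*, the gene of a hyaluronan receptor, in every cell type, so lymphatic vessels were without it as well as macrophages. The strain background of these animals is not given in the sources used here. Since each genotype had 1 library, differences between them could not be tested. All 95% intervals cover counting error only and not the spread between hearts.

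The kept cells held 63542936 unique molecular identifiers (UMIs, each marking 1 captured RNA molecule) in 4187 WT cells and 57666174 in 3391 KO cells, and 9 cell barcodes occurred in both libraries. *Lyve1* itself had 15783 UMIs in the WT library, 248 counts-per-million of the UMIs of those cells (CPM), with an exact Poisson interval of 245 to 252, and 760 UMIs in the KO library, 13.2 CPM (12.3 to 14.2). Which part of the gene the KO line lacks is not given in the sources used here, and where the UMIs left come from was not tested. Classes of cells were rebuilt from marker lists and are called like a cell type. Clusters of 5 classes were compared: CCR2- macrophage-like (1213 WT and 542 KO cells), CCR2+ macrophage-like (231 and 224), monocyte-like (498 and 551), T cell-like (399 and 485) and B cell-like (427 and 495). Neutrophil-like cells (351 and 335) were set beside them as the class with the lowest level of S-phase genes. The histone genes, the related genes and the S and G2/M genes were kept out of the clustering.

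Replication-dependent histone genes supply the bulk of the histones that package newly copied DNA. H2A, H2B, H3 and H4 form the core of the nucleosome, and H1 binds the linker DNA between nucleosomes. These genes lie in clusters, are transcribed mainly in S phase and mostly have no introns. Their mRNAs normally end in a conserved stem-loop, bound by SLBP, in place of a poly(A) tail, and are degraded when DNA synthesis stops. Replacement variants such as H2A.Z and H3.3 are encoded by other genes, with ordinary polyadenylated mRNAs, throughout the cell cycle. The libraries were primed with oligo-dT, which favours polyadenylated RNA, so the counts describe those histone transcripts that this priming reached.

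The stem-loop is the feature that sets these mRNAs apart, so its sequence is shown for members of each type in which it was found and that had many UMIs. The 16-letter pattern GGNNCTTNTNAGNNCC, in which N is any base, was searched on the sense strand within 100 bases after the stop codon. It was found in 46 of the 67 members (68.7%) and in 6 of 21632 other protein-coding genes (0.0277%), among them *H2afx*, which encodes the replacement variant H2A.X. Among the 21 members without a match, 17 had an annotated region after the stop codon of under 50 bases, which can leave the stem-loop outside the annotation. *Hist1h1b*, with 0 bases annotated there, was one of them. *Hist1h2bc* had no match either, with 742 bases annotated after the stop codon. The sequences below are 5′ to 3′ on the sense strand of GRCm38, with the stem-loop in capitals and 5 bases either side in lower case.
Hist1h4d (H4, chr13:23581945-23581970, plus strand): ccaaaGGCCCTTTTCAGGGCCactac
Hist1h2ae (H2A, chr13:23570663-23570688, minus strand): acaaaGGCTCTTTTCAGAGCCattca
Hist1h2ab (H2A, chr13:23751567-23751592, plus strand): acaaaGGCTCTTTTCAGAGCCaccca
Hist1h1e (H1, chr13:23621777-23621802, minus strand): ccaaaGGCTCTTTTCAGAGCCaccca
Hist1h2bj (H2B, chr13:22043633-22043658, plus strand): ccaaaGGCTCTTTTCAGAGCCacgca
Hist1h3e (H3, chr13:23561898-23561923, minus strand): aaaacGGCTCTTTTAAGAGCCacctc
Hist1h4i (H4, chr13:22040961-22040986, minus strand): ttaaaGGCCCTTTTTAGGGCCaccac
The 16 bases of *Hist1h2ae*, *Hist1h2ab*, *Hist1h1e* and *Hist1h2bj* were identical, and 26 members of the H1, H2A, H2B and H3 types shared them. The 16 bases of *Hist1h4d* were found in 7 members, all of the H4 type. Those of *Hist1h3e* were found in 6 members and those of *Hist1h4i* in 2. In 26 members the annotation (GENCODE M21) held a transcript that runs more than 50 bases past the stem-loop, by 770 bases in *Hist1h4d* and 1153 bases in *Hist1h1e*. In *Hist1h2ab* it runs 11 bases past it.

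The members lie close together. On GRCm38, 54 of the 67 were on chromosome 13, with 23 between positions 21715763 and 22043676 and 31 between 23531050 and 23934851. A further 10 were on chromosome 3, 2 on chromosome 11 and 1 on chromosome 6, and 62 had a single exon. There were 12 pairs of an H2A and an H2B gene that start next to each other on opposite strands, with 176 to 306 bases from one start to the other. RefSeq promoters (GRCm38.p6), from 250 bases before to 50 after the start, were matched for 62 members. On either strand TATAAA was in 56.5% of them against 13.6% of all 32851 promoters of the same length, and CCAAT in 85.5% against 37.4%. CCAAT was in every matched promoter of the H1, H2A, H2B and H3 types and in 3 of the 12 of the H4 type. The octamer ATTTGCAT was in 7 of 18 H2A and 6 of 16 H2B promoters, and in 1.74% of all promoters. These matches describe letters in a window and not sites in use. The stretch between the starts of *Hist1h2ae* and *Hist1h2bg* is shown because the 2 genes share it and yet differed widely in UMIs. It holds the 175 bases that lie between both starts and is printed on the plus strand, towards *Hist1h2bg*, with each match to these 3 motifs on either strand in capitals.
Hist1h2ae-Hist1h2bg (chr13:23571221-23571395, plus strand): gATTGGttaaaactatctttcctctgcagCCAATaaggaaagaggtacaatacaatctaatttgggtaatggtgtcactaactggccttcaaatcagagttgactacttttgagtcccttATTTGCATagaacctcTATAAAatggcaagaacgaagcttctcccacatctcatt
*Hist1h2ae* had 17078 UMIs over both libraries and *Hist1h2bg* 1099. The H2A gene had more UMIs in 7 of the 12 pairs, 1 of which had no UMIs at all, and *Hist1h2ac* with 1681 against 9888 of its partner *Hist1h2bc* stood the other way.

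A few members made up most of the signal. Over both libraries the members had 172448 UMIs, 0.133% of all UMIs in WT and 0.153% in KO, of which 5 members held 51.3% and 12 members 75.5%. *Hist1h4d*, an H4 gene, came first with 27294 UMIs. It was followed by *Hist1h2ae* (17078), the linker histone gene *Hist1h1b* (15983), *Hist1h2ab* (15164), the linker histone gene *Hist1h1e* (12867), *Hist1h2bc* (9888) and the linker histone gene *Hist1h1c* (9458). Each of these was above *Hist1h3e* (6423), *Hist2h2ac* (5105), *Hist1h3f* (4112), *Hist1h1d* (3554) and *Hist1h1a* (3306), the rest of the first 12. There were 30 members with at least 1000 UMIs and 9 with under 100. No UMI was counted for *Hist1h2aa* or *Hist1h2ba*. Many members are near copies of each other: 46 had at least 95% of their coding bases in common with another member of the same type and coding length, and 8 were identical to one over the coding sequence. Single-gene counts of such copies are uncertain, because reads could be split among them or left out. The sums by type carry less of this uncertainty.

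The level of the summed members differed widely between classes, in the same order in both libraries. T cell-like cells stood highest, at 4872 CPM in WT (4814 to 4930.1) and 3692 CPM in KO (3649 to 3736). B cell-like cells followed at 1451 CPM (1421 to 1481) and 2562 CPM (2528 to 2595), and CCR2- macrophage-like cells at 1236 CPM (1223 to 1249) and 1140.3 CPM (1123 to 1158). Neutrophil-like cells had 499 CPM (473 to 526) and 771 CPM (739.9 to 803). Monocyte-like cells had 415 CPM (402 to 429) and 585 CPM (570.5 to 599.7), and CCR2+ macrophage-like cells 402 CPM (386 to 418) and 518 CPM (502 to 535). The last 2 classes had overlapping intervals in WT and separate ones in KO.

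A single cluster held most of the T cell-like signal, and another held about as much of the CCR2- macrophage-like signal as the other clusters of that class together. The thymocyte-like cluster, the only T cell-like cluster with many UMIs of *Rag1*, *Rag2*, *Dntt* and *Ptcra*, genes of immature T cells (891 CPM in sum), had 9345 CPM of histone UMIs in WT and 12293 CPM in KO. It held 33.8% of the T cell-like cells in WT (135 cells) and 13.8% in KO (67 cells), and 94.4% and 70.7% of their histone UMIs. The remaining T cell-like clusters had 535 CPM in WT and 1372 CPM in KO. Among the CCR2- macrophage-like clusters, 1 with *Hist1h2ae*, *Hist1h2ab*, *Hist1h1b* and *Hist1h1d* among its 10 leading genes, beside the thymidine kinase gene *Tk1*, had 9184 CPM in WT and 11161 CPM in KO. It is CCR2- cluster 12 in the plot of levels. With 65 WT and 21 KO cells (5.36% and 3.87% of the class) it held 50.5% and 48.9% of the histone UMIs of the class, and the other clusters of the class had 657 and 614 CPM.

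**Figure D1:**
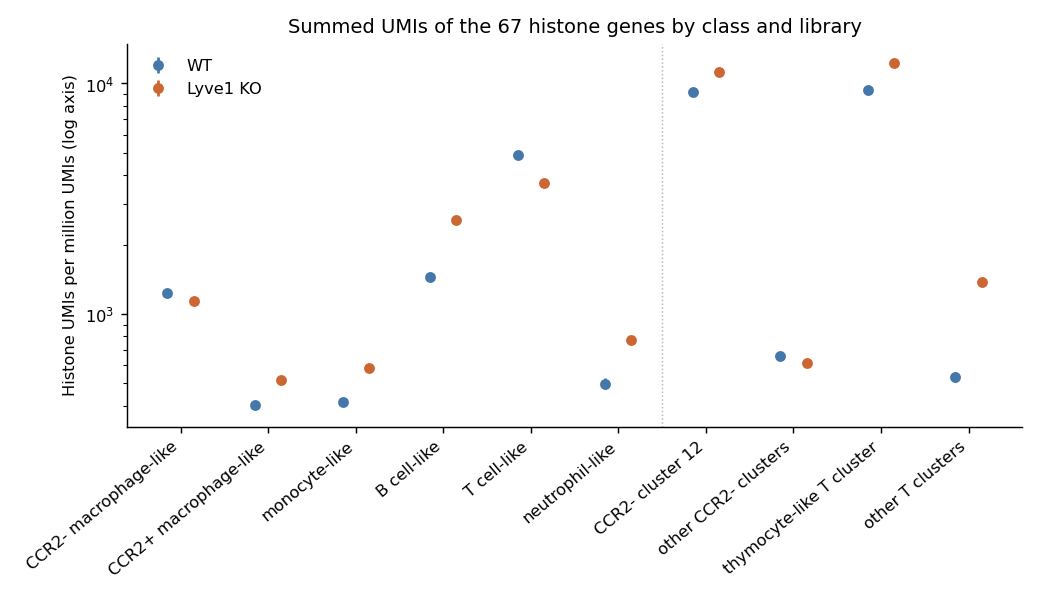
Summed UMIs of the 67 replication-dependent histone genes in CPM (log axis) in each class, in the WT library (blue) and the *Lyve1* KO library (orange), with exact Poisson 95% intervals that mostly lie within the points. Right of the dotted line the T cell-like and CCR2- macrophage-like classes are divided into the cluster with the highest level (thymocyte-like, 9345 and 12293 CPM; CCR2- cluster 12, 9184 and 11161 CPM) and the others.

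The signal was also uneven from cell to cell. After thinning each cell to 4000 UMIs, leaving out shallower cells (120 WT and 46 KO in T cell-like cells, 8 to 72 in the other classes of either library), a histone UMI was present in 66.6% of WT and 59.2% of KO CCR2- macrophage-like cells (exact binomial intervals 63.8 to 69.3 and 54.8 to 63.6). Before thinning the shares were 91.1% and 89.9%. Thinned B cell-like cells had one in 76.3% (71.6 to 80.7) of WT and 84.1% (80.4 to 87.3) of KO cells. T cell-like cells outside the thymocyte-like cluster had one in 64.7% (57.6 to 71.3) and 83.0% (78.9 to 86.7). No class lacks histone RNA, so no class gave a pure level of free RNA. Some members were nearly absent from neutrophil-like cells, among them *Hist1h1a* with 0 UMIs in WT and 2 in KO and *Hist1h1b* with 5 and 9 (1.76 and 2.98 CPM, against 89.4 and 73.7 CPM in CCR2- macrophage-like cells). Cells with at least 20 histone UMIs of 4000 were 52 of 1156 WT and 16 of 503 KO CCR2- macrophage-like cells, 13 of 355 and 32 of 452 B cell-like cells, and 33 of 78 and 21 of 56 thymocyte-like cells. In the monocyte-like class there were 2 of 442 in WT and 0 of 509 in KO, which allows a share of up to 0.722% by the exact binomial interval.

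Levels were compared between the libraries as log2 ratios of KO over WT after adding 10 CPM to each. In B cell-like cells the members were higher in KO as a sum (0.82, 0.78 to 0.85), and every type was higher, from H1 at 0.51 (0.45 to 0.58) to H4 at 1.19 (1.11 to 1.27). Cells with Y-linked and no *Xist* UMI had 1644 CPM in WT and 2464 CPM in KO (0.58, 0.54 to 0.62), and those with *Xist* and no Y-linked UMI 538 CPM (88 cells) and 2554 CPM (160 cells), a ratio of 2.23 (2.10 to 2.36). In monocyte-like cells the sum was 0.48 (0.43 to 0.54) and in CCR2+ macrophage-like cells 0.36 (0.29 to 0.43). The latter became -0.0425 when the histone, related, S and G2/M genes were not kept out of the 2000 variable genes used for clustering. Of the 2 CCR2+ macrophage-like clusters the one led by *Spp1*, which encodes osteopontin, had 221 CPM in WT and 393 CPM in KO (0.80, 0.70 to 0.90). The one led by *Cd209a* and by MHC class II genes such as *H2-Ab1*, which dendritic cells also express (35 cells in each library), had 1137 and 1059 CPM (-0.10, -0.21 to 0.01). The sum was slightly lower in KO in CCR2- macrophage-like cells (-0.11, -0.14 to -0.09) and lower in T cell-like cells (-0.40, -0.42 to -0.37). Neutrophil-like cells had 0.62 (0.52 to 0.71). The same 2 pools of hearts stand behind all classes, so the ratios of different classes are not separate evidence.

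H4 stood above the other types in each of the 5 classes. In CCR2- macrophage-like cells the H4 ratio was 0.24 (0.18 to 0.29) while H1, H2A and H2B lay between -0.24 and -0.20 and H3 at -0.08 (-0.16 to -0.01). In T cell-like cells H4 was at -0.02 (-0.07 to 0.04) with the other types between -0.61 and -0.32. The H4 share of all histone UMIs was 17.4% in WT and 22.4% in KO CCR2- macrophage-like cells, 18.8% and 24.9% in B cell-like, 16.8% and 21.9% in T cell-like, 22.8% and 26.7% in monocyte-like and 19.9% and 23.0% in CCR2+ macrophage-like cells. Neutrophil-like cells had 14.4% in WT and 14.5% in KO. In the T cell-like clusters other than the thymocyte-like one, H2A had the highest ratio (1.74, 1.59 to 1.90), above H4 (1.32, 1.16 to 1.47).

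**Figure D2:**
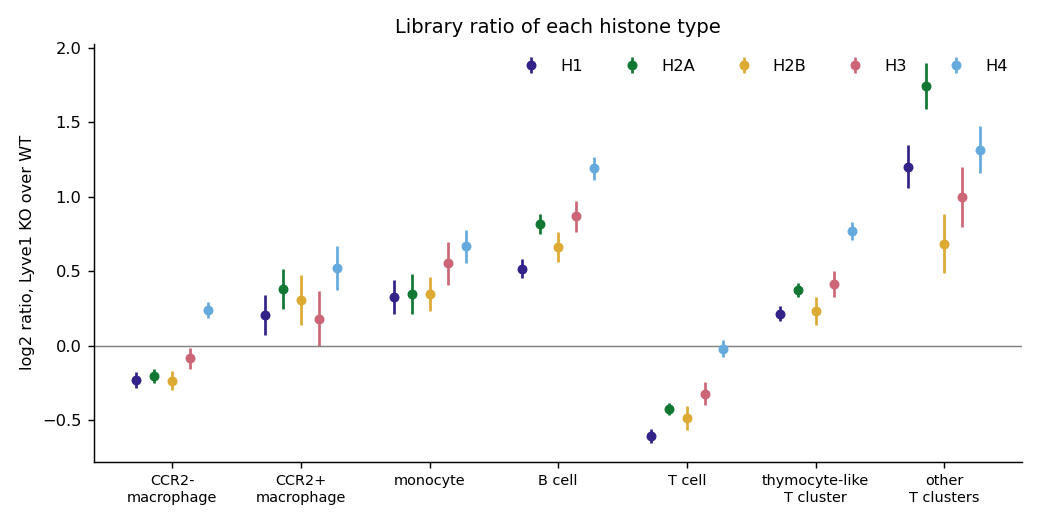
Log2 ratio of *Lyve1* KO over WT (CPM + 10) of the summed UMIs of each histone type in the 5 classes, with the T cell-like class also divided into the thymocyte-like cluster and the other clusters. Points are the ratios and bars exact 95% counting intervals; H4 (light blue) is the highest type in every column but the last, where H2A (1.74) is.

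Most of the difference in H4 UMIs lay in *Hist1h4d*. Over all kept cells *Hist1h4d* had 172 CPM in WT and 284 CPM in KO, a log2 ratio of 0.69 (0.66 to 0.73), and the other 12 H4 genes together had 62.5 and 71.1 CPM, a ratio of 0.16 (0.11 to 0.22). In CCR2- macrophage-like cells *Hist1h4d* had 150.2 and 196 CPM (0.37, 0.30 to 0.43) and the other H4 genes 65.2 and 59.6 CPM (-0.11, -0.21 to -0.01). In B cell-like cells *Hist1h4d* had 208 and 527 CPM (1.30, 1.21 to 1.39) and the other H4 genes 65.4 and 110.0 CPM (0.67, 0.52 to 0.82). In monocyte-like cells the values of *Hist1h4d* were 53.9 and 98.5 CPM (0.76, 0.62 to 0.90), and in CCR2+ macrophage-like cells 54.1 and 93.0 CPM (0.68, 0.52 to 0.85). T cell-like cells had nearly equal levels, 691 and 696 CPM (0.01, -0.05 to 0.07), made of a thymocyte-like cluster at 1315 and 2345 CPM and other clusters at 86.0 and 251 CPM. Neutrophil-like cells had 4.94 CPM of *Hist1h4d* in WT, from 14 UMIs, and 40.7 CPM in KO. *Hist1h4d* shared at most 94.2% of its coding bases with another H4 gene (*Hist1h4j*).

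Single members were called when they had at least 100 UMIs in both libraries together and differed by a log2 ratio of 1 or more in either direction. With the 10 CPM added, a gene under 10 CPM in both libraries could not be called. In B cell-like cells 38 members reached that count, all 38 ratios were above 0 and their median was 0.55, against a median of -0.01 over all 9026 genes with that count. Of the 38 members 2 were called higher in KO, where 0.332% of all genes were, and 0 lower, where 0.343% were. They were *Hist1h4d* and the H3 gene *Hist1h3b*, with 80 UMIs (12.96 CPM) in WT and 359 UMIs (40.7 CPM) in KO (1.14, 0.92 to 1.36). The next in level were *Hist1h2ae*, at 142 and 237 CPM (0.70, 0.59 to 0.81), *Hist1h1e*, at 159 and 234 CPM (0.53, 0.42 to 0.63), *Hist1h1b*, at 169.9 and 215 CPM (0.32, 0.22 to 0.43), and *Hist1h2ab*, at 111 and 207 CPM (0.85, 0.73 to 0.97). The lowest ratio was that of *Hist1h4i* (0.07, -0.15 to 0.30), at 21.1 and 22.7 CPM. The S-phase genes of the Seurat list, enzymes and factors of DNA replication for the most part, had 2002 and 2076 CPM in the same cells (0.05, 0.02 to 0.09). The G2/M genes of that source had 3669 and 4514 CPM (0.30, 0.27 to 0.32), and 9.86% (6.96 to 13.4) of thinned WT and 15.04% (11.9 to 18.7) of thinned KO cells had a UMI of the proliferation gene *Mki67*. By cluster, the histone level was 2065 and 3660 CPM in the B cell-like cluster led by *Ms4a1*, which encodes CD20, 646 and 909 CPM in the one led by *Vpreb3* and 547 CPM in both libraries in the one led by *Gm26917*.

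In CCR2- macrophage-like cells 50 members reached 100 UMIs. None was called, where 0.415% of all genes were called higher and 0.117% lower. *Hist1h4m*, with 145 UMIs in WT and 1 in KO, was among the members too low in CPM for a call. Above 0 were 15 of the 50 ratios, with a median of -0.08, and 31.3% of the 11095 genes tested, with a median of -0.07. *Hist1h2ae* had 142 CPM in WT and 113 CPM in KO (-0.30, -0.38 to -0.23), *Hist1h2ab* 124 and 102 CPM (-0.25, -0.33 to -0.17), *Hist1h2bc* 107 and 84.8 CPM (-0.30, -0.39 to -0.22), *Hist1h1b* 89.4 and 73.7 CPM (-0.25, -0.34 to -0.16) and *Hist1h1e* 82.6 and 64.7 CPM (-0.31, -0.41 to -0.22). *Hist1h4d* and *Hist1h3b*, at 15.2 and 19.7 CPM (0.23, 0.10 to 0.37), stood the other way. The summed level did not keep its direction between parts of the pools. Cells with a UMI of *Ddx3y*, *Eif2s3y*, *Kdm5d* or *Uty*, which are Y-linked, and none of *Xist* had 1323 CPM in WT and 889.8 CPM in KO (-0.57). Cells with the reverse had 1059.9 and 1581 CPM (0.57). In KO, 10 of these *Xist* cells, in the cluster led by histone genes, held 5919 of the 9041 histone UMIs. In that cluster the ratio was -0.37 in cells with Y-linked UMIs and 0.91 in cells with *Xist* UMIs, with 10 KO cells in either part. In the other CCR2- macrophage-like clusters the ratios were -0.01 (-0.05 to 0.04) and -0.26 (-0.32 to -0.20) in the same order. How many hearts of each sex were pooled is not given, and the part of single hearts in the differences was not tested.

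In monocyte-like cells 23 members reached 100 UMIs, 20 with a ratio above 0, against 51.6% of the 8967 genes tested. None was called, where 0.0335% of all genes were called higher and 0.256% lower. Besides *Hist1h4d*, *Hist1h3e* had 21.04 and 39.2 CPM (0.66, 0.48 to 0.85), *Hist1h1e* 33.9 and 49.9 CPM (0.45, 0.28 to 0.62) and *Hist1h2bc* 59.8 and 76.3 CPM (0.31, 0.17 to 0.45), while *Hist1h1b*, at 10.2 and 9.09 CPM, and *Hist1h2ab*, at 8.16 and 7.58 CPM, had intervals that hold 0. The rise was not general to the monocyte-like clusters. The summed ratio was 0.86 in the one led by *Vcan*, 0.35 in the one led by *Gm9733* and 0.88 in one led by *Ace* (64 and 77 cells). In another led by *Ace* (117 and 134 cells) it was -0.01 (-0.14 to 0.11), and in the one led by *Ldlrad3* 0.12 (-0.11 to 0.36). In CCR2+ macrophage-like cells 11 members reached 100 UMIs, 9 with a ratio above 0, against 43.9% of the 8560 genes tested. None was called, where 0.257% were called higher and 0.222% lower over all genes. *Hist1h2ae* had 31.9 and 41.5 CPM there (0.30, 0.09 to 0.51). Split by sex-linked transcripts, the summed ratio of monocyte-like cells was 0.37 in cells with Y-linked UMIs and 0.58 in cells with *Xist* UMIs, and that of CCR2+ macrophage-like cells 0.06 (-0.03 to 0.14) and 1.26 (1.12 to 1.41).

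In T cell-like cells the make-up of the class differed between the libraries, with fewer thymocyte-like cells in KO as given above. Of the 42 members with at least 100 UMIs 9 had a ratio above 0 (median -0.29), against 39.5% of the 8996 genes tested (median -0.07). None was called, where 0.256% of all genes were called higher and 0.878% lower. *Hist1h1b* had 769 CPM in WT and 432 CPM in KO (-0.82, -0.88 to -0.75), *Hist1h1a* 177 and 95.7 CPM (-0.83, -0.96 to -0.70), *Hist1h2ab* 580 and 359 CPM (-0.68, -0.75 to -0.60), *Hist1h2ae* 557 and 437 CPM (-0.34, -0.41 to -0.27) and *Hist1h1e* 341 and 256 CPM (-0.40, -0.49 to -0.31). Inside both parts of the class the sum went the other way. It was 0.40 (0.37 to 0.42) in the thymocyte-like cluster and 1.34 (1.26 to 1.42) in the other clusters, where *Hist1h2ae* had 80 UMIs (28.2 CPM) in WT and 901 UMIs (153 CPM) in KO, *Hist1h2ab* 35.6 and 114 CPM and *Hist1h1b* 31.4 and 97.0 CPM. With each thymocyte-like cell thinned to 4000 UMIs, which gives cells equal weight, the means were 32.6 histone UMIs per cell in WT and 32.5 in KO. Thinning left 78 of the 135 WT and 56 of the 67 KO cells of that cluster, so the set of cells changed as well as their weight. Among the other clusters the level was 404 and 2529 CPM in the one led by *Ctla4* (32 and 49 cells), which also has the regulatory T cell factor *Foxp3* among its leading genes, 839.5 and 1968 CPM in the one led by *Sidt1* and *Cd8b1*, 369 and 629 CPM in the one led by *Dapl1*, and 279 and 341 CPM in the one led by *Cd163l1*. The thymocyte-like cluster had 105 cells with *Xist* UMIs and no Y-linked UMI in WT and 2 in KO, against 21 and 50 cells with the reverse, so that most of it came from hearts of different sex in the 2 libraries. Over the whole class the ratio was 0.80 in cells with Y-linked UMIs and -1.37 in cells with *Xist* UMIs. The G2/M genes of the Seurat list had 10128 CPM in WT and 5788 CPM in KO in the whole class (-0.81). Of the 52 with at least 100 UMIs 13 were called lower in KO, against 0.878% of all genes.

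Set against S-phase genes in the same cells, histone UMIs were more frequent in KO in each class. There were 0.761 histone UMIs per UMI of the S list in WT and 0.921 in KO CCR2- macrophage-like cells (log2 ratio 0.28, 0.24 to 0.31). B cell-like cells had 0.725 and 1.23 (0.77, 0.72 to 0.82), monocyte-like cells 0.536 and 0.867 (0.70, 0.62 to 0.77), CCR2+ macrophage-like cells 0.399 and 0.553 (0.47, 0.38 to 0.56) and T cell-like cells 1.05 and 1.19 (0.18, 0.14 to 0.21). Without *Hist1h4d* the ratios were 0.19, 0.66, 0.63, 0.39 and 0.10 in the same order. The replacement variants, read the same way, had 0.23, -0.03, 0.15, 0.04 and 0.11, so that in CCR2- macrophage-like and T cell-like cells, where the S list was lower in KO (-0.39 and -0.58), their intervals overlapped those of the members without *Hist1h4d*. In the T cell-like clusters outside the thymocyte-like one there were 0.363 and 0.896 (1.30, 1.21 to 1.40). In CCR2- macrophage-like cells the value was 1.11 in cells with *Xist* UMIs and -0.26 in cells with Y-linked UMIs. The direction thus did not hold in both parts of that class as a whole. The opposite signs lay in the cluster led by histone genes, at 1.64 and -0.32, with 10 KO cells in either part. In the other clusters of that class the values were 0.33 (0.25 to 0.40) and 0.11 (0.05 to 0.17). In T cell-like cells the value was 0.03 (-0.03 to 0.09) and 0.46 in the same order, and in B cell-like cells 1.35 and 0.72. Monocyte-like cells had 0.91 and 0.48, and CCR2+ macrophage-like cells 0.90 and 0.44.

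The level along S phase was then read from the cells of the 5 classes thinned to 4000 UMIs, ranked by summed UMIs of the 43 S genes and divided into deciles over both libraries together. Histone UMIs were low and near level over the lower deciles and high in the top decile. Deciles 1 to 5 lay between 372 and 521 CPM in WT and between 458 and 576 CPM in KO, and the ninth had 871 and 865 CPM. The top decile had 4592 CPM in WT (284 cells, 4468 to 4718) and 6478 CPM in KO (172 cells, 6289 to 6671). In that decile the histone log2 ratio was 0.50 (0.44 to 0.55), and 59.9% of the cells of either library had a UMI of the proliferation gene *Mki67*. The S genes had a ratio of -0.02 (-0.08 to 0.03) there. Near-level S genes were almost fixed beforehand, because both libraries were ranked together on those genes. All 16 members with at least 100 thinned UMIs in the top decile had a ratio above 0 (median 0.43), against 43.2% of the 3708 genes tested (median -0.05). The top decile held 77 T cell-like, 156 CCR2- macrophage-like and 34 B cell-like cells in WT and 54, 48 and 58 in KO. Within it, T cell-like cells had 8318 CPM in WT and 10394 CPM in KO, B cell-like cells 3890 and 5741 CPM and CCR2- macrophage-like cells 3293 and 4063 CPM. The intervals were separate in each of the 3 classes, but they leave out the spread between cells and between hearts. The top decile was not divided by sex-linked UMIs. In the CCR2- cluster led by histone genes the ratio was -0.37 in cells with Y-linked and 0.91 in cells with *Xist* UMIs. CCR2+ macrophage-like cells (9 in each library) had 889 and 2444 CPM, and monocyte-like cells were 8 and 3. Over deciles 1 to 5 the ratio was 0.20 (0.12 to 0.29), with 7 of 11 members above 0, against 46.7% of the 8375 genes tested.

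**Figure D3:**
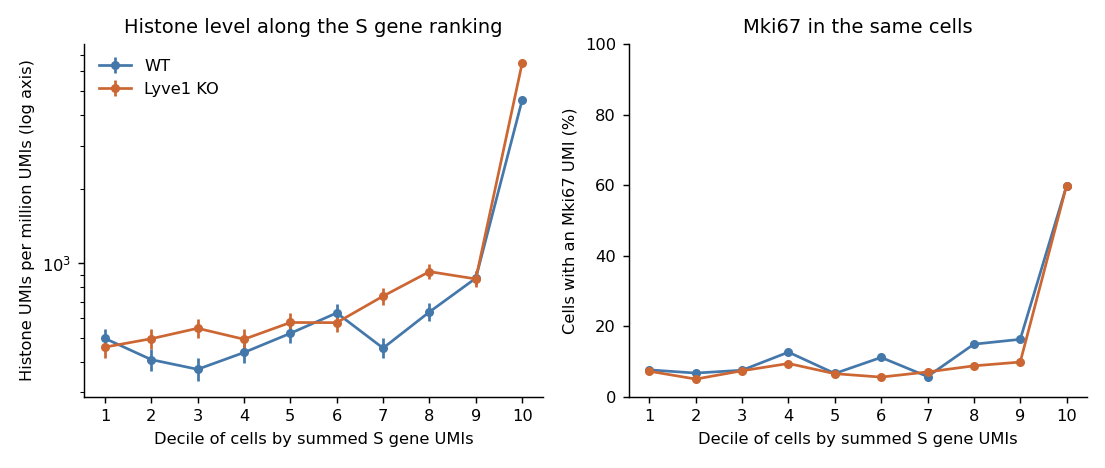
Left, summed histone level in CPM (log axis) in each decile of the cells of the 5 classes, ranked by their UMIs of S genes after thinning to 4000 UMIs per cell, with exact Poisson 95% intervals; right, share of the same cells with a *Mki67* UMI (%). Blue is WT and orange *Lyve1* KO; the top decile has 4592 and 6478 CPM of histone UMIs at 59.9% *Mki67* in both libraries.

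The members did not share 1 profile along this ranking. For 40 members the top decile could be set against deciles 1 to 5 over both libraries, and 21 were at least 10-fold higher in it while 14 were under 4-fold higher. These members had at least 50 thinned UMIs in the compared deciles together and over 3 in deciles 1 to 5. Some passed only through the top decile, such as *Hist1h3b* (150 UMIs there and 6 in deciles 1 to 5) and *Hist1h3c* (120 and 9). The counts, and the medians given below, thus describe a set chosen in part by its high level there. *Hist1h1b* was 118-fold higher (647 against 5.48 CPM, interval of the fold 89.0 to 160.1), *Hist1h2ab* 94.4-fold (610.2 against 6.46 CPM) and *Hist1h3b* 125-fold, from 6 UMIs in the lower deciles (56.2 to 346). *Hist1h2ae* was 47.2-fold, *Hist1h1a* 40.1-fold, *Hist1h1d* 20.1-fold, *Hist1h2bj* 19.4-fold and *Hist2h2ac* 16.4-fold higher. *Hist1h4d*, the member with the most UMIs, was 14.3-fold higher (823 against 57.6 CPM, 12.9 to 15.8), with a level in the lower deciles next to that of *Hist1h2bc*. *Hist1h1e* was 11.2-fold, *Hist1h3f* 7.18-fold, *Hist1h3e* 5.11-fold, *Hist1h4i* 3.34-fold and *Hist1h1c* 2.73-fold higher (152 against 55.8 CPM, 2.35 to 3.16). *Hist1h2bc* was lower in the top decile, at 58.7 against 75.8 CPM (0.774-fold, 0.626 to 0.95). The intervals of *Hist2h2aa1* (1.20-fold), *Hist2h2be* (1.19-fold), *Hist3h2a* (0.567-fold), *Hist2h4* (1.67-fold) and *Hist4h4* (1.83-fold) held 1. *Hist1h2af*, with 3 UMIs in deciles 1 to 5, was given no fold.

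By type, the median fold was 30.9 over 11 H2A members, 20.1 over 5 H1, 11.5 over 10 H2B, 7.18 over 7 H3 and 3.34 over 7 H4 members. The summed UMIs of all members of a type gave another order. In WT the fold of the sum was 24.7 for H2A, 13.6 for H1, 8.71 for H4, 6.89 for H3 and 2.96 for H2B. In KO the folds were 32.3, 14.7, 10.97, 8.32 and 3.97 in the same order. H2B was thus the lowest type as a sum and H4 the lowest by the median. The 22 members annotated with a transcript more than 50 bases past the stem-loop, or with over 150 bases after the stop codon, had a median fold of 4.02, and 11 of them were under 4-fold. The other 18 members had a median of 23.4, and 3 were under 4-fold. The ranges overlapped widely, with *Hist1h3b* (125), *Hist1h3c* (66.8) and *Hist1h2ae* (47.2) the highest of the former and *Hist1h1b* (118) and *Hist1h2ab* (94.4) the highest of the latter. Of the other 18, several had 0 bases annotated after the stop codon, among them *Hist1h1b*, *Hist1h2ai*, *Hist1h2ak* and *Hist1h2an*, and *Hist1h1a* had 48. Their 3′ ends are thus unknown rather than short, and the contrast also sets fully annotated members against others. Neighbours with a shared promoter region also differed, with 47.2-fold for *Hist1h2ae* and 5.39-fold for *Hist1h2bg*, whose common stretch is printed above, and 16.4-fold for *Hist2h2ac* and 1.19-fold for *Hist2h2be*. The ranking rests on S genes that are transcribed in the same phase as these members, so the order of folds describes likeness to the S list and no test was made of it.

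**Figure D4:**
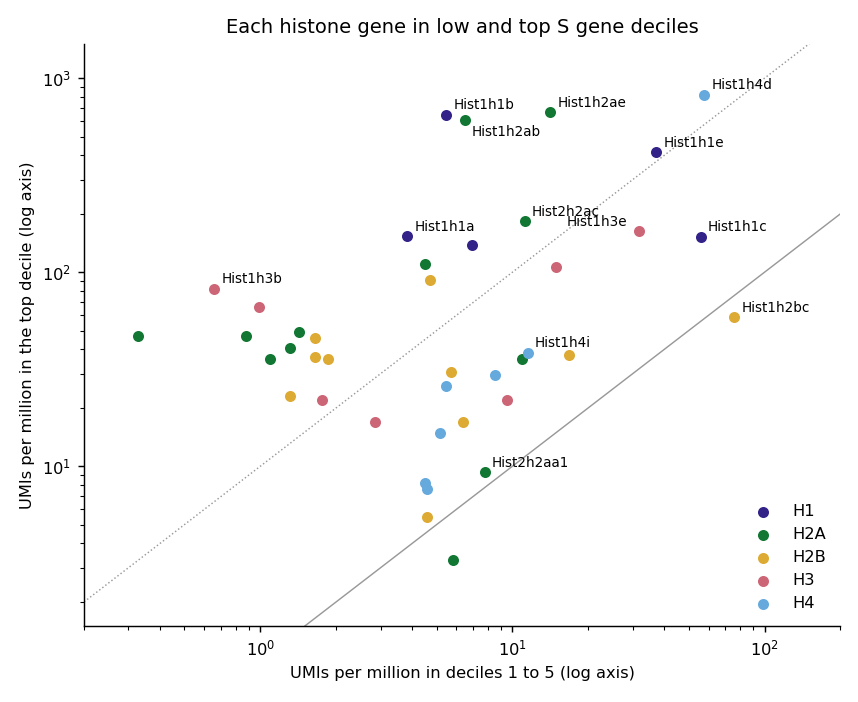
CPM of each of the histone genes with enough UMIs in deciles 1 to 5 (x) and in the top decile (y) of the S gene ranking, both libraries together and both axes logarithmic, coloured by type. The full line marks equal levels and the dotted line 10-fold; *Hist1h1b* and *Hist1h2ab* lie far above the dotted line, *Hist1h4d* near it and *Hist1h2bc* below the full line.

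Neutrophil-like cells had another set of members at the top. Their S genes had 295 CPM in WT and 396 CPM in KO (0.41, 0.28 to 0.53), below every one of the 5 classes, and their G2/M genes 1978 and 2902 CPM (0.55, 0.50 to 0.60). Of the 14 genes of that list with at least 100 UMIs, *Ube2c*, *Top2a* and *Mki67* were higher in KO by a log2 ratio of 1 or more. The share over all genes was not taken in this class. A *Mki67* UMI was present in 2.25% of thinned WT and 1.61% of thinned KO cells. H2B made up 42.4% of their histone UMIs in WT and 36.4% in KO, against 8.12% to 23.5% in the 5 classes, and H3 2.05% and 5.11%. *Hist1h2bc* stood first with 178 CPM in WT and 223 CPM in KO, above its level in every one of the 5 classes. *Hist1h1c* had 94.2 and 152 CPM, *Hist2h2aa1* 81.5 and 91.7 CPM, *Hist1h4i* 46.6 and 49.3 CPM and *Hist1h2be* 28.6 and 29.8 CPM, and these are members with a low fold along the S ranking (0.774 to 3.34). The members with a high fold were at the bottom: *Hist1h1a* had 0 and 2 UMIs, *Hist1h2ab* 3 and 11, *Hist1h1b* 5 and 9 and *Hist1h2ae* 5 and 25. The class was not uniform. Its cluster led by *Ngp*, *Camp* and *Ltf*, granule genes of neutrophil precursors (22 WT and 28 KO cells), had 297 CPM in WT and 687 CPM in KO (1.18, 0.92 to 1.45), with H3 at 10.2 and 81.3 CPM and H4 at 47.1 and 199 CPM. The cluster led by *Stfa1* (250 and 263 cells) had 595 and 835 CPM (0.48, 0.37 to 0.59). H2B made up 19.3% and 16.8% of the histone UMIs in the *Ngp* cluster and 44.3% and 41.7% in the *Stfa1* cluster. In monocyte-like cells *Hist1h2bc* (59.8 and 76.3 CPM), *Hist1h4d* and *Hist1h1c* (51.0 and 59.2 CPM) were the highest 3.

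The pair *Hist1h4m* and *Hist1h4n*, chosen after its values were seen, differed between the libraries in a way that the sum of both genes did not. They encode H4 with identical coding sequences and lie 19620 bases apart on chromosome 13, *Hist1h4m* from 21811746 to 21812147 on the plus strand and *Hist1h4n* from 21831767 to 21832196 on the minus strand. Over the 402 aligned bases of their transcripts 1 base differed, G36A (*Hist1h4m* first, counted from the 5′ end of its transcript), which lies within the 38 bases before the start codon. The base is in capitals in these 25-base windows of GRCm38.
Hist1h4m (chr13:21811769-21811793, plus strand): agttttgtcttcGtcatgtctggtc
Hist1h4n (chr13:21832149-21832173, minus strand): agttttgtcttcAtcatgtctggtc
In WT, *Hist1h4m* had 270 UMIs and *Hist1h4n* 264, so *Hist1h4m* held 50.6% (46.2 to 54.9). In KO, *Hist1h4m* had 3 UMIs and *Hist1h4n* 558, a share of 0.535% (0.110 to 1.55). Together they had 8.40 CPM in WT, against 9.73 CPM in KO (log2 ratio 0.10, 0.02 to 0.18). The share was 41.8% to 52.5% in the 6 classes of the WT library and 0 to 1 UMIs of *Hist1h4m* in each class of the KO library. Since reads of the genes can be told apart only where they cover that base or the ends of the transcripts, the 2 counts are uncertain as levels of either gene, and the sum is the safer value. A difference of sequence between the animals of the 2 libraries was not tested.

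**Figure D5:**
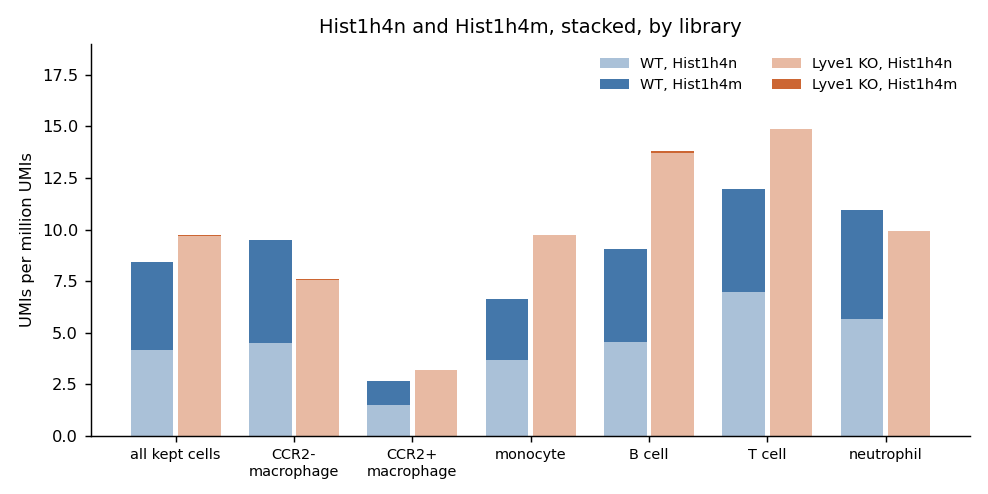
CPM of *Hist1h4n* (light) and *Hist1h4m* (dark), stacked, over all kept cells and in each class of the WT (blue) and *Lyve1* KO (orange) libraries. In WT the dark part is near the light one (270 and 264 UMIs over all kept cells), and in KO it is nearly absent (3 and 558 UMIs).

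The genes around the histone mRNAs, taken as lists, stayed near level in B cell-like, monocyte-like and CCR2+ macrophage-like cells (summed ratios of -0.10 to 0.05), where the members were higher in KO. In CCR2- macrophage-like and T cell-like cells they were lower in KO, as the members were. Among 11 replacement variants, which are made outside S phase as well, the summed ratio was 0.03 (0.01 to 0.05) in B cell-like cells, -0.17 (-0.18 to -0.15) in CCR2- macrophage-like cells, -0.06 in CCR2+ macrophage-like, -0.05 in monocyte-like and -0.47 (-0.49 to -0.45) in T cell-like cells. *H3f3a* and *H3f3b*, the genes of H3.3, had 2452 and 2477 CPM (*H3f3a*) and 1111 and 1119.9 CPM (*H3f3b*) in B cell-like cells, with intervals of the ratio that hold 0. *H2afz*, the gene of H2A.Z, had 1636 and 968 CPM in T cell-like cells (-0.75, -0.79 to -0.71) and 527 and 516 CPM in B cell-like cells (-0.03, -0.09 to 0.04). *H2afx* was the 1 gene called on this list, lower in KO T cell-like cells at 304 and 144 CPM (-1.03, -1.13 to -0.92). It had 82.8 and 42.6 CPM in CCR2- macrophage-like cells (-0.82, -0.93 to -0.71) and 132 and 156 CPM in B cell-like cells (0.23, 0.11 to 0.34).

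For the 19 genes of histone transcription and mRNA processing the summed ratio was 0.05 in B cell-like cells (-0.00 to 0.10), -0.16 in CCR2- macrophage-like cells, -0.05 in CCR2+ macrophage-like cells, -0.02 in monocyte-like cells and -0.34 in T cell-like cells, and 0 were called in any of the 5 classes. *Slbp*, the gene of the stem-loop binding protein, had 129 and 124 CPM in B cell-like cells (-0.06, -0.18 to 0.06), where the members were higher in KO, and 78.6 and 63.6 CPM in CCR2- macrophage-like cells (-0.27, -0.36 to -0.17). *Srrt*, which encodes a partner of the nuclear cap-binding complex, had 108 and 117 CPM in B cell-like cells (0.11, -0.02 to 0.24). Among 20 histone chaperones the summed ratio was 0.02 in B cell-like cells (-0.01 to 0.05), -0.13 in CCR2- macrophage-like, -0.10 in CCR2+ macrophage-like, -0.04 in monocyte-like and -0.41 in T cell-like cells, and 0 were called. *Nap1l1*, a chaperone of H2A and H2B, had 797 and 864 CPM in B cell-like cells (0.12, 0.06 to 0.17) and 576 and 386 CPM in T cell-like cells (-0.56, -0.64 to -0.49), and *Atrx*, a chromatin remodeller that deposits H3.3, had 300.2 and 304 CPM (0.02, -0.07 to 0.10) and 454 and 383 CPM (-0.24, -0.31 to -0.16). Along the S ranking in WT, the members were 10.3-fold higher in the top decile than in deciles 1 to 5, the S genes 14.2-fold, the G2/M genes 5.70-fold, the processing genes 2.56-fold, the chaperones 2.53-fold and the replacement variants 1.42-fold, with 7.30-fold for *Slbp*, 5.397-fold for *H2afx*, 2.75-fold for *H2afz* and 0.972-fold for *H3f3a*. In KO the values were 12.6, 14.01, 5.54, 2.61, 2.62 and 1.36 for the lists in the same order. The fold of the S genes follows from the ranking itself.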

How the data were processed

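Live CD45+ cells of 5 pooled WT hearts and 5 pooled *Lyve1* KO hearts were sequenced as 1 library each. The authors deposited raw UMI counts per gene and cell barcode, made with Cell Ranger 8.0.1 on mm10/GRCm38 and restricted to barcodes called as cells. The UMI totals were 67968938 (5713 barcodes, WT) and 61555917 (5285 barcodes, KO), and the depth of rare members is limited by them. The authors' split of cells by heart needs the reads and was not repeated here. Near-identical copies, and reads that map to several genes, can lower or shift single-gene counts, and oligo-dT priming favours polyadenylated histone RNA.

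Barcodes were kept above the study's limits (500 genes, 250 UMIs) and up to 30% of mitochondrial UMIs, and 98 WT and 73 KO barcodes with the highest scrublet scores (scanpy 1.11.5) were left out, at an expected 0.4% per 1000 barcodes, because the automatic call marked 1 and 4. The mitochondrial limit was exceeded by 10.5% of WT and 16.5% of KO barcodes. In Seurat 5.3.0 (R 4.3.3) the libraries were integrated on 2000 variable genes, S and G2/M scores were regressed out, and cells were clustered in 30 dimensions (k = 20, resolution 0.8), and macrophages and monocytes were clustered again by themselves. Each cluster was set to the marker list with the highest mean log2 level relative to the mean of the clusters. It was named where 25% or more of its cells held each of 3 or more markers of that list. In addition, no unrelated list could have more markers among its 10 leading genes. A shallow cluster also needed a marker of its own list among those genes. Rebuilt names may differ from those of the study.

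UMIs were summed per class and library and divided by all UMIs of the same cells (CPM). Intervals are exact Poisson for levels, exact binomial for shares and conditional binomial for ratios of levels. Ratios of UMIs per UMI of the S list have intervals by a normal approximation on the log scale. Python 3.11.15, numpy 2.4.6 and scipy 1.17.1 were used, and the intervals and calls were tested on simulated data. Shares and the S ranking used cells thinned to 4000 UMIs, with ties in rank broken at random. Positions and stem-loops are from GENCODE M21 and promoters from RefSeq.

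Members named are the 12 with the most UMIs, the 2 with the most UMIs of each type, each one called in any class, and *Lyve1*. From the lists of replacement variants, processing genes and chaperones they are the 2 with the most UMIs of each, *Slbp*, *H2afx*, *H2afz* and each gene called. Others are named as examples of a pattern chosen after their values were seen (*Hist1h4m*, *Hist1h4n*, *Hist1h2bg*, *Hist1h2be*, *Hist2h2aa1* and the like). The members, the lists and the comparisons were chosen with earlier results of these data known. Alternatives were another pseudocount, stricter cell limits, doublets kept, other weights, scaling and clustering, and parts of the cells.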

Additional observations from a re-analysis of the deposited data

How the results depend on the processing

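The log2 ratio of the summed members kept its direction under the alternatives run in monocyte-like cells (0.35 to 0.59) and B cell-like cells (0.58 to 2.23). It turned in the other 3 classes, and the cause was not tested. In CCR2- macrophage-like cells the value of -0.11 became 0.0179 when clusters were made without regression of cell cycle scores and 0.57 in cells with *Xist* and no Y-linked UMI. It was -0.24 as a mean over cells and -0.0494 with the median of all genes set to 0. With clusters made on all 2000 variable genes it was -0.0621, and without *Hist1h4d* -0.20. It was -0.32 without the 1% of cells highest in histone UMIs and -0.57 in cells with Y-linked and no *Xist* UMI. Outside the cluster led by histone genes, cells with Y-linked UMIs had -0.0077 and those with *Xist* UMIs -0.26. In CCR2+ macrophage-like cells the value of 0.36 became -0.0425 when the histone, related, S and G2/M genes were not kept out. It was 0.56 with doublets kept, 0.51 as a mean over cells and without cell cycle regression, and 0.28 without *Hist1h4d*. Cells of this class with Y-linked and with *Xist* UMIs had 0.0582 and 1.26. In T cell-like cells the value of -0.40 became 1.34 without the thymocyte-like cluster, an alternative chosen after seeing the data, and 0.80 in cells with Y-linked UMIs, against -1.37 in cells with *Xist* UMIs. It was -0.48 with doublets kept and without *Hist1h4d*, -0.31 as a mean over cells and -0.33 with the median of all genes set to 0. Without cell cycle regression it was -0.34, and -0.30 when the histone, related, S and G2/M genes were not kept out. Without the 1% of cells highest in histone UMIs it was -0.60.

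In monocyte-like cells the value of 0.48 was 0.59 with doublets kept, 0.35 as a mean over cells, 0.56 without the 1% of cells highest in histone UMIs, 0.42 without *Hist1h4d*, and 0.37 and 0.58 in cells with Y-linked and with *Xist* UMIs. In B cell-like cells the value of 0.82 was 0.88 as a mean over cells, 0.89 without cell cycle regression, 0.92 without the 1% of cells highest in histone UMIs, 0.71 without *Hist1h4d*, and 0.58 and 2.23 in cells with Y-linked and with *Xist* UMIs. Adding 1 CPM in place of 10 and the stricter cell limits (1000 genes, 10% mitochondrial UMIs) moved none of the 5 sums by more than its counting interval. A minimum of 30 UMIs moved no count of called members by over 1.5 times. With 10 CPM added, members of so few UMIs could be called in few cases or none, so this outcome was nearly fixed beforehand. Types and single members were run only with 1 CPM added, the stricter limits, a mean over cells and the median of all genes set to 0. Of these 756 alternatives 632 stayed within the counting interval, 124 moved beyond it and 0 of the called values changed sign. The parts by sex-linked UMIs, other clustering and doublets kept were not run for them, so their dependence on these was not tested. The 46 stem-loops were the same with 200 bases searched. No paired analysis was possible because each genotype had 1 library, both labelled replicate 1, and no replicate could be left out.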

Other observations

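Cells of the 5 classes were also given a cell cycle phase by the Seurat lists after thinning to 4000 UMIs. Histone UMIs were highest in cells called G2/M rather than S. CCR2- macrophage-like cells called S had 871 CPM in WT and 534 CPM in KO. Those called G2/M had 5055 and 5829 CPM, and 92.7% and 82.9% of them had a *Mki67* UMI. B cell-like cells called S had 646 CPM in WT and 1302 CPM in KO (*Mki67* in 7.63% and 13.4%). Those called G2/M had 3244 and 5325 CPM (*Mki67* in 45.2% and 65%). T cell-like cells called S had 2522 and 1880 CPM (*Mki67* in 30% and 15.4%), and those called G2/M 5375 and 3927 CPM (*Mki67* in 58.1% and 27.2%). The free RNA of each library enters such calls, and its part in them was not tested.

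Among single clusters of macrophages the level went either way. The cluster led by *Cd207*, a lectin gene known from Langerhans cells, had 307 CPM in WT (74 cells) and 703 CPM in KO (17 cells), and the one led by *Gdf15* had 591 CPM (183 cells) and 274 CPM (60 cells). *Hist1h2ao* and *Hist1h2ap*, a second pair of H2A genes with identical coding sequences, kept a like split in both libraries, with 69.4% (65.5 to 73.1) of the pair's UMIs on *Hist1h2ao* in WT and 74.0% (71.0 to 76.8) in KO. Their sum was 9.32 and 15.6 CPM, a log2 ratio of 0.41 (0.33 to 0.49).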
